A study of Mus musculus with 2 samples.

Results

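The globin genes encode the protein chains of hemoglobin and were counted here in single cells of mouse bone marrow. The list held 8 genes chosen by name, namely the adult alpha-globin genes Hba-a1 and Hba-a2, the adult beta-globin genes Hbb-bs and Hbb-bt, the theta-globin genes Hbq1b and Hbq1a, the embryonic beta-like gene Hbb-bh1, and Ahsp, which encodes the alpha-hemoglobin chaperone. Of these, 7 were found among the 32285 genes of the count tables, and Ahsp was not analysed here. Femoral marrow of 1 WT mouse and 1 DKO mouse, both 2 months old, was sequenced with the Chromium Single Cell 3' v3 chemistry, with 1 library each. The WT mouse was a littermate that carried the floxed Ddx41 alleles without VavCre and with wild-type cGas, and the DKO mouse was VavCre:Ddx41 fl/fl, cGAS-/-. VavCre is a Cre recombinase active in hematopoietic cells, and by the study's own account also in oocytes and endothelial cells, so Ddx41, an RNA and DNA helicase, was deleted across the blood lineages, whereas cGAS, a sensor of cytosolic DNA, was absent from the whole animal. The effects of Ddx41 loss, cGAS loss, Cre and the individual library cannot be told apart with this design.

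Adult hemoglobin is a tetramer of alpha and beta chains, each holding a heme. Red cell precursors fill up with globin messenger RNA as they mature and lose most of their other transcripts, and an excess of free alpha chains is known to be harmful to them. The mouse beta-globin genes stand in a cluster with embryonic genes used by the yolk sac red cells, and the alpha-globin genes stand in a separate cluster with theta-globin genes, whose protein product has no settled function.

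The members lie in 2 clusters that hold similar gene pairs, which is shown here because it limits how reads can be assigned. In GRCm38, with every gene built of 3 exons, the alpha side lies on the plus strand of chromosome 11 in the order Hba-a1 (chr11:32283511-32284465), Hbq1b (chr11:32286965-32287784), Hba-a2 (chr11:32296489-32297298) and Hbq1a (chr11:32300069-32300873). The beta side lies on the minus strand of chromosome 7, with Hbb-bt at chr7:103812524-103813996, Hbb-bs at chr7:103826534-103828096 and Hbb-bh1 at chr7:103841637-103843164. None of the 7 overlaps another gene of the count table. Of the 411 possible 90-base words in the last 500 bases of the transcript, 78.1% of those of Hba-a1 occur in Hba-a2 and 74.2% of those of Hba-a2 in Hba-a1. Of the words of Hbb-bs, 61.3% occur in Hbb-bt, and of those of Hbb-bt, 61.1% occur in Hbb-bs. Hbq1a shares 32.4% of its words with Hbq1b, Hbq1b shares 8.27% with Hbq1a, and Hbb-bh1 shares 0 with any other gene. Splits within the alpha pair and within the beta pair are therefore uncertain. The sum of a pair is free of this only if shared reads are split between both genes rather than dropped. The alpha pair shares more words than the beta pair, so dropped reads would also touch the levels of the alpha to beta balance. Which reads were lost was not tested. The level of Hbq1b is less exposed to shared reads.

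The start regions of the members whose levels moved apart are printed 5′ to 3′ on the gene's strand, from RefSeq with build GRCm38.p6. Capitals mark CACCC (the core of the element bound by Klf1), CCAAT and ATATAA, with either strand searched. RefSeq starts can differ from the gene positions given above. The Hbb-bs stretch thus lies within its gene interval above, and those of Hbb-bt and Hba-a2 overlap theirs in part.

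Hba-a2, chr11:32296342-32296491, plus strand: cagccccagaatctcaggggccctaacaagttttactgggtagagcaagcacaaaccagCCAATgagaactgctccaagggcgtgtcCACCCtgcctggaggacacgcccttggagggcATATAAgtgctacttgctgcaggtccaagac

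Hbq1b, chr11:32286814-32286963, plus strand: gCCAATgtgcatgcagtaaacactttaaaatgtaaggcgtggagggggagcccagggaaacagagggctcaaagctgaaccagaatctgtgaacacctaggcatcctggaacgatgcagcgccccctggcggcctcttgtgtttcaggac

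Hbq1a, chr11:32299919-32300068, plus strand: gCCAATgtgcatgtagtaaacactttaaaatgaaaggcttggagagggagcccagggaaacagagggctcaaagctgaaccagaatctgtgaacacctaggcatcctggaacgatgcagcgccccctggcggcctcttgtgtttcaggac

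Hbb-bs, chr7:103827994-103828023, minus strand, bases 95 to 66 before the start: agccaCACCCtggtaagggCCAATctgctc

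Hbb-bt, chr7:103813989-103814018, minus strand, bases 95 to 66 before the start: gggtaaCACCCtggcATTGGCCAATctgct

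Hba-a1 shares an unbroken run of 247 of its 250 upstream bases with Hba-a2. Hbq1b and Hbq1a differ at 11 of 250 upstream positions, 95.6% identity, and Hbb-bs and Hbb-bt share 70.5%. Within 150 bases upstream, CACCC was found in 4 of the 6 members with a sequence (both alpha and both beta genes) and in 37.4% of 32851 promoters of the same length. ATATAA was found in the same 4 genes and in 5.35% of promoters, CCAAT in 6 of 6 members and 24.5% of promoters, and GATAA in 0 members and 13.3% of promoters. In Hbb-bt a reversed CCAAT and a forward one stand next to each other in the printed stretch, sharing no base. These letter matches are a description, and neither theta gene holds a CACCC or ATATAA in this window.

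After removal of empty droplets, doublets and damaged cells, 18767 WT cells with 119504195 unique molecular identifiers (UMIs, each a transcript counted once) and 13725 DKO cells with 114736747 UMIs were kept, with medians of 4872 and 6903 UMIs per cell. Both libraries shared 75 kept barcodes. The WT matrix held all barcodes, whereas the DKO matrix began at 500 UMIs, so free RNA could be read directly only in the WT library. Ddx41 gave 2421 UMIs (20.3 counts per 1000000 UMIs, CPM) in WT cells and 916 (7.98 CPM) in DKO cells, and Cgas 1618 (13.5 CPM) and 830 (7.23 CPM). Both were lower in the DKO library, and 3' tags may lie outside the deleted parts of these genes. The sums mix cell classes, and within classes the Cgas difference was smaller in some, with a log2 ratio of DKO over WT of -0.45 (interval -0.65 to -0.26) in monocyte-like and -0.14 (-0.53 to 0.22) in granulocyte-monocyte progenitor-like cells. With 1 library per genotype no test, p-value or standard error is given, and all 95% intervals cover counting error only.

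Erythroid-like cells fell into 7 clusters, built without the globin members and ordered by their late over early erythroid markers. The early ones are called E1 (leading genes Mt2 and Car1), E2 (Hemgn, Slc6a20a and Klf1) and E3 (Garem1 and C530008M17Rik), and the late ones L1 (Xpo7 and Tmcc2), L2 (Prxl2a, Isg15 and Bpgm), L3 (Bpgm and Tent5c) and L4 (Alas2 and Bpgm). Of 14 early markers, 10 were raised in E1, 14 in E2 and 10 in E3, and of 15 late markers 15, 13, 11 and 9 were raised in L1 to L4. The top 10 genes of E3 held no early marker. E2 had 1005 WT and 958 DKO cells, and the late class had 6084 and 4805 cells with 32179265 and 39415724 UMIs. Ddx41 had 132 WT and 104 DKO UMIs in E1 and 107 and 57 in E2. It had at most 12 in any other stage of either library, so its loss could not be read in L1 to L4. A further cluster of 23 WT cells and 0 DKO cells, led by Ighd and Bank1, was not used.

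The globin members together took a growing share of the transcripts as erythroid-like cells matured, and their summed share was slightly higher in the DKO library in E2 and in L1 to L4. In E2 they took 27.8% of WT and 33.7% of DKO UMIs. The share was 66.1% and 69.3% in L1, 87.1% and 89.8% in L2, 88.6% and 91.5% in L3, and 89.7% and 93.2% in L4. In E1 and E3 the summed share was lower in the DKO library, 6.68% against 4.75% and 21.3% against 16.0%. Those sums rest on the globin-rich part of the barcodes, and the median cell went the other way. It held 1.91% in WT and 3.65% in DKO cells of E1, and 3.08% and 3.95% in E3. The upper quartile in E1 was 6.16% and 19.8%. Both clusters were shallow, with median UMIs of 1157 and 1013 in E1 and 1891.5 and 2189.5 in E3, against 8849 and 13198 in E2.

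In every late stage Hbb-bs was the highest member and Hba-a1 the next in both libraries. Hbb-bs reached 461352 CPM in WT and 426317 CPM in DKO cells of L3, where Hba-a1 had 157421 and 204681 CPM. Below them, Hbb-bt lay above Hba-a2 in WT cells and below it in DKO cells. In L3, Hbb-bt had 138657 CPM in WT and 122376 CPM in DKO cells, while Hba-a2 had 128402 and 161744 CPM. The theta genes lay far below. Hbq1b had 69.1 and 43.9 CPM in L3 and Hbq1a had 22.4 and 28.8 CPM. Their log2 ratios of DKO over WT there were -0.66 (interval -0.84 to -0.47) and 0.36 (0.09 to 0.64), with counting error only. Hbb-bh1 was last with 20 and 8 UMIs.

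**Figure D1:**
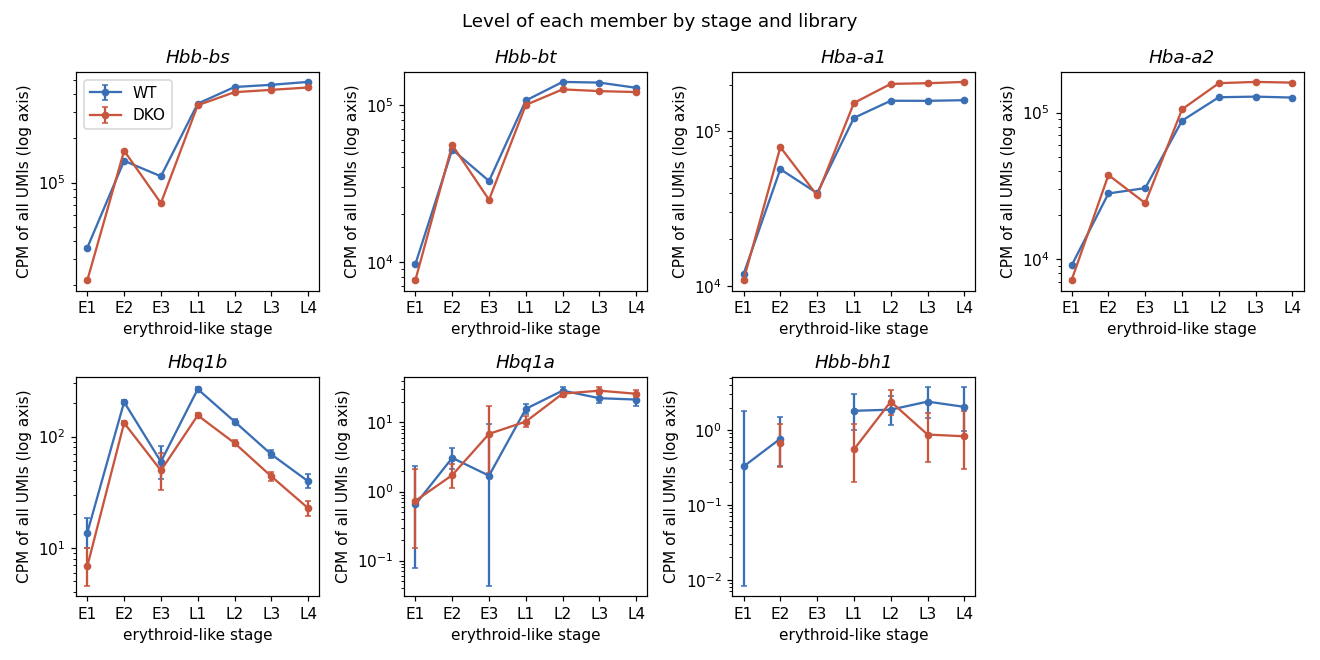
Level of each of the 7 measured members (CPM of all UMIs, log axis) in the erythroid-like clusters E1 to L4, with WT in blue and DKO in red and bars for exact 95% Poisson intervals. A point at 0 is not drawn, and E3 is placed by its marker ratio only. Both alpha genes lie higher in DKO cells in L1 to L4 and Hbq1b lies lower in DKO cells in every cluster, with overlapping intervals in E1 and E3.

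The balance of alpha to beta transcripts differed between the libraries in every erythroid stage. In WT cells the alpha genes supplied 30.6% of the adult globin UMIs (Hba-a1, Hba-a2, Hbb-bs and Hbb-bt) in E2, 31.8% in L1, 32.7% in L2, 32.3% in L3 and 31.8% in L4. In DKO cells they supplied 34.6%, 37.2%, 40.2%, 40.04% and 39.6%. The WT share thus stayed within a narrow band, while the DKO share was higher by 4.0 percentage points in E2 and by 7.1 points over all late cells (32.3% against 39.4%). As a ratio, late WT cells held 0.477 alpha UMIs per beta UMI and late DKO cells 0.649.

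Single cells showed the same shift as the sums. Among late cells with at least 1000 adult globin UMIs, 5769 in WT and 4557 in DKO, the median alpha share was 32.3% (quartiles 30.4% to 34.2%) in WT and 39.4% (36.8% to 42.3%) in DKO. The spread between cells was wider in the DKO library, with an SD of 4.22 against 3.12 percentage points. Of the DKO cells, 70.0% lay above 37.4%, the 95th percentile of the WT cells, and in E2 the corresponding share was 41.2%. Cells of 1 library are not replicates, so these figures describe the libraries.

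**Figure D2:**
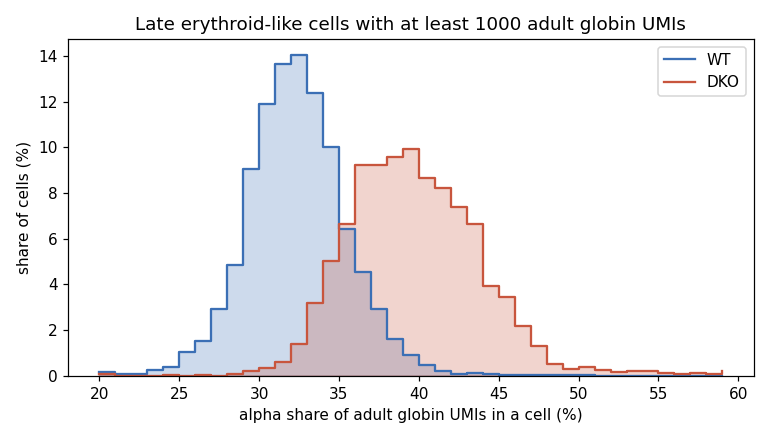
Distribution of the alpha share of adult globin UMIs over single late erythroid-like cells with at least 1000 such UMIs (x axis, percent in bins of 1 point, cells beyond either end counted in the end bins) as a percent of the cells of each library (y axis), with WT in blue and DKO in red. The WT median is 32.3% and the DKO median 39.4%, and the distributions overlap.

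Median UMIs per cell were higher in the DKO library in E2, E3 and L1 to L4, beside a higher alpha share. In E1 the median was lower in the DKO library (1157 in WT, 1013 in DKO), while the alpha share was higher (31.5% and 38.2%). Among cells grouped by their adult globin UMIs, the alpha share was also higher in the DKO library. These UMIs form the share itself and do not match the libraries for capture or depth, whose part was not tested. With 1000 to 2500 adult globin UMIs per cell the alpha share was 33.1% in 729 WT and 41.5% in 179 DKO cells, and with 2500 to 5000 it was 32.4% in 2710 and 40.9% in 423 cells. With 5000 to 10000 it was 32.2% in 2249 and 39.7% in 3384 cells, and with 10000 to 20000 it was 31.8% in 81 and 37.7% in 563 cells. The larger the cells, the lower the share was in both libraries, and the gap ranged from 5.86 to 8.54 points. Grouped by the share of UMIs that the members took, the alpha share was 31.4% and 34.3% at 0 to 15%, 31.5% and 36.2% at 40 to 75%, and 31.3% and 39.1% at 90% or more, so the gap was wider in the globin-richest cells than in the globin-poorest.

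The named classes outside the erythroid lineage also showed a higher alpha share among their globin UMIs in DKO cells. The DKO share exceeded the WT share in 11 of 11 such classes, by 3.35 to 8.32 points, including B cell-like and neutrophil-like cells that should make no globin. In B cell-like and neutrophil-like cells these sums rest mostly on globin-rich barcodes. Cells with at most 1% globin UMIs held 28409 of 642438 globin UMIs in WT and 19559 of 589452 in DKO B cell-like cells. In neutrophil-like cells they held 55652 of 915170 and 50204 of 946436. The part of erythroid RNA in such barcodes was not tested. Non-erythroid-like cells with at most 1% globin UMIs had an alpha share of 33.8% in WT and 37.0% in DKO cells, a gap of 3.15 points. The classes of a library share 1 cell suspension and its free RNA, so they are not independent observations of the difference.

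In terms of genes, the shift was a higher level of both alpha genes with a slightly lower level of both beta genes in CPM. In late cells Hba-a1 had 149272 CPM in WT and 190445 CPM in DKO cells, a log2 ratio of DKO over WT of 0.35, and Hba-a2 had 117954 and 144845 CPM, a log2 ratio of 0.30. Hbb-bs had 430793 and 399433 CPM (log2 -0.11), and Hbb-bt 129864 and 116833 CPM (log2 -0.15). The sum of all members differed by only 0.04. With 82.8% of WT and 85.2% of DKO UMIs from the members, CPM forces a rise of some members into a fall of others, so the direction for the beta genes depends on the scaling. Scaled by the UMIs outside the members, the log2 ratio was 0.56 for Hba-a1, 0.51 for Hba-a2, 0.10 for Hbb-bs and 0.06 for Hbb-bt, and per cell it was 0.98, 0.93, 0.52 and 0.48.

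Per cell, L4 cells held on average 1080 alpha and 2313 beta UMIs in WT and 2241 alpha and 3424 beta UMIs in DKO. In E2 the means were 881 and 1994 UMIs in WT and 1831 and 3454 UMIs in DKO. Under each of the 3 scalings the alpha genes were higher in the DKO library in each of E2 and L1 to L4, whereas for the beta genes the CPM ratio was above 0 in E2 and below 0 in L1 to L4. More RNA per cell, more efficient capture and deeper sequencing cannot be told apart here. Median UMIs outside the members were also higher in DKO cells, 7158.5 against 5289 in E2, 2493 against 1644 in L1 and 410 against 362.5 in L4. In E1 they were lower in DKO cells, 849 against 951.

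**Figure D3:**
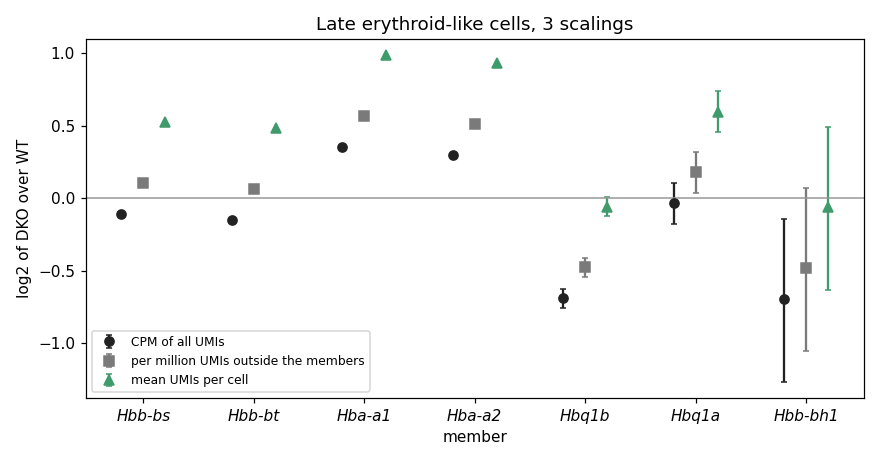
Log2 ratio of DKO over WT (y axis) for each member in late erythroid-like cells under 3 scalings, CPM of all UMIs (black circles), UMIs outside the members (grey squares) and mean UMIs per cell (green triangles), with exact 95% counting intervals. Both alpha genes lie above 0 under each scaling, the beta genes cross 0 between scalings, and Hbq1b moves from -0.69 in CPM to -0.06 per cell.

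Of the 6 members with at least 20 CPM in late cells, 1 (Hbq1b) lay past 1.5-fold in CPM, beside 19.7% of the 879 genes tested there. Hbq1b was not past it per UMI outside the members (log2 -0.48) or per cell (-0.06). Per cell Hba-a1 and Hba-a2 were past it, but the share of all genes past it was not counted on that scale. Late DKO cells held more UMIs than late WT cells (median 8064 against 5326.5), so per-cell ratios lie above CPM ratios for every gene. Of those 879 genes 11 were higher and 162 lower in the DKO library, and with CPM of the UMIs outside the members 166 were higher and 555 lower of 3075. In early cells 1 of 5 members (Hbq1b again) lay past 1.5-fold, beside 3.73% of 4744 genes. The median log2 ratio of all genes tested was -0.09 in late cells in CPM and 0.12 when the members were left out of the totals. The early log2 ratios were 0.46 for Hba-a1, 0.36 for Hba-a2, 0.18 for Hbb-bs, 0.09 for Hbb-bt and -0.59 for Hbq1b, the last of which was -0.51 per UMI outside the members.

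Within the alpha pair, the share of Hba-a2 was higher in L1 to L4 than in E2 in both libraries. It was 33.0% of alpha UMIs in WT and 32.2% in DKO cells of E2, 41.9% and 40.8% in L1, 44.6% and 43.9% in L2, 44.9% and 44.1% in L3, and 44.3% and 43.4% in L4. Over cells grouped by their globin content, it rose from 28.5% and 26.9% at 0 to 15% of UMIs to 44.6% and 43.5% at 75 to 90%. The steps from E2 to L1 and from L1 to L2 were larger than the difference between the libraries, which stayed near 1 point in these stages, and the steps among L2 to L4 were not. In E1 the share was 43.2% and 39.8% and in E3 43.4% and 38.5%, sums that rest on the globin-rich part of the barcodes. Most 3′ sequence is shared between both genes, so the level of this split depends on how shared reads were assigned.

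Within the beta pair, Hbb-bs was the major gene throughout, and its share was higher in L1 to L4 than in E2. Hbb-bs made up 73.0% of beta UMIs in WT and 74.8% in DKO cells of E2, 76.3% and 77.0% in L1, 76.1% and 76.6% in L2, 76.9% and 77.7% in L3, and 79.0% and 78.6% in L4. Over all late cells it was 76.8% and 77.4%, a difference of 0.53 percentage points. The direction was reversed in L4, by -0.42 points, in E1 (78.9% and 73.9%) and in E3 (77.1% and 74.5%). By globin content, Hbb-bs rose from 67.1% and 67.2% at 0 to 15% to 78.7% and 77.9% at 90% or more. Per cell, the quartiles of the late WT cells ran from 74.1% to 79.6% and those of the DKO cells from 74.7% to 80.2%, so the libraries overlapped almost fully.

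**Figure D4:**
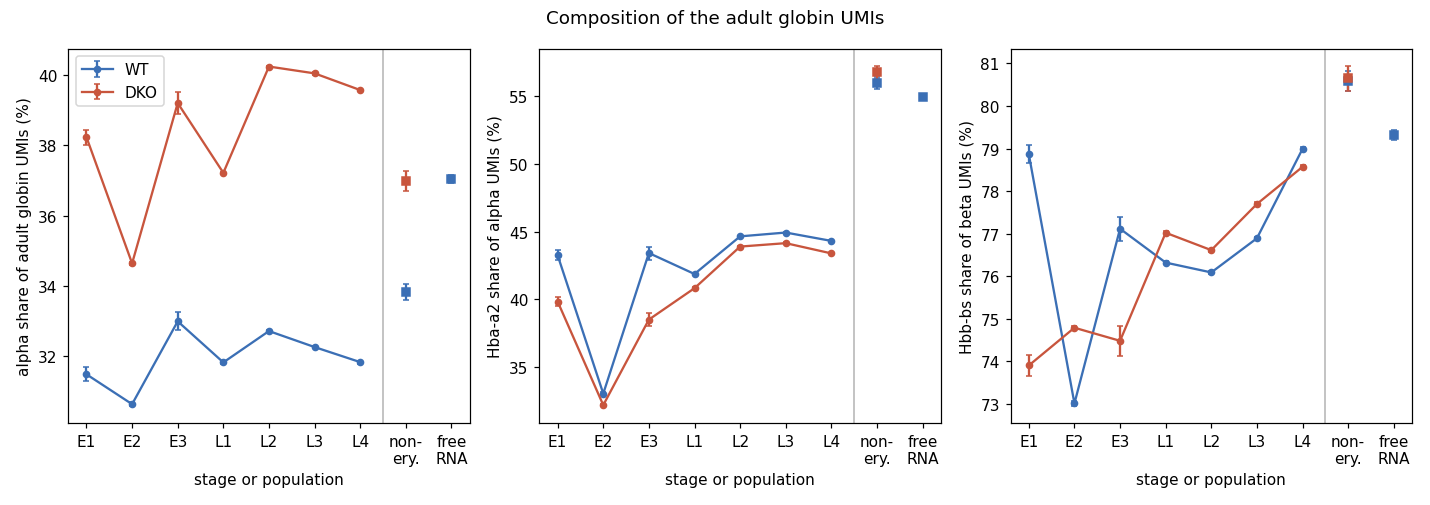
Composition of the adult globin UMIs (y axes in percent, not starting at 0) in the 7 erythroid-like clusters, in non-erythroid-like cells with at most 1% member UMIs (non-ery.) and in WT barcodes with 51 to 200 UMIs (free RNA), with WT in blue, DKO in red and bars for exact 95% binomial intervals. The alpha share is higher in DKO cells in every cluster, whereas the Hba-a2 and Hbb-bs shares are higher in L4 than in E2 in both libraries and are highest in the non-erythroid-like cells.

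The theta gene Hbq1b had its highest CPM in L1, earlier than the adult genes, and was lower relative to them in DKO cells of E2 and L1 to L4. Its level was 204 CPM in WT and 132 CPM in DKO cells of E2, 267 and 155 CPM in L1, 136 and 87.4 CPM in L2, 69.1 and 43.9 CPM in L3, and 39.6 and 22.7 CPM in L4. Its CPM thus fell between L1 and L4 in both libraries. Per 1000000 UMIs outside the members, its highest level was instead in L2, with 786 and 505 in L1, 1054 and 858 in L2, and 384 and 333 in L4. Per 10000 alpha UMIs it declined from 24.0 (interval 23.0 to 25.1) in WT and 11.4 (10.9 to 11.9) in DKO cells of E2 to 1.39 and 0.616 in L4. Over all late cells the values were 5.07 and 2.50, a log2 ratio of -1.02.

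In UMIs per cell, however, Hbq1b hardly differed. The mean was 2.12 in WT and 2.08 in DKO cells of E2, 1.5 and 1.46 in L1, 0.840 and 0.815 in L2, 0.362 and 0.349 in L3, and 0.150 and 0.138 in L4. The late log2 ratio was -0.69 in CPM (interval -0.76 to -0.63), -0.48 per UMI outside the members and -0.06 per cell. A cell of the DKO library thus held about as many Hbq1b UMIs as a WT cell, while it held more alpha UMIs (log2 0.96) and more beta UMIs (log2 0.51). Among late cells of like size, Hbq1b per 10000 alpha UMIs was 5.60 in WT and 2.88 in DKO cells with 1000 to 2500 adult globin UMIs, 4.61 and 2.35 with 2500 to 5000, 5.35 and 2.26 with 5000 to 10000, and 4.72 and 3.40 with 10000 to 20000.

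Grouped by globin content, the Hbq1b difference in CPM was smaller in the globin-richest cells. In the latest stages it was not smaller in CPM, but it was smaller per UMI outside the members. In the stages, built without the members, the log2 ratio in CPM was -0.64 in L2, -0.66 in L3 and -0.80 in L4. Per UMI outside the members it was -0.50 in E2, -0.64 in L1, -0.30 in L2, -0.23 in L3 and -0.21 in L4 (interval -0.52 to 0.10). The globin groups are cut on the members themselves, whose share was higher in DKO cells of L1 to L4. They therefore need not match the libraries for maturity. Grouped by the share of UMIs that the members took, its level was 49.9 CPM in WT and 21.8 CPM in DKO erythroid-like cells at 0 to 15%, 230 and 127 CPM at 15 to 40%, and 291 and 173 CPM at 40 to 75%. At 75 to 90% it was 127 and 109 CPM, and at 90% or more 45.3 and 44.1 CPM, where the intervals overlap (40.5 to 50.4 and 41.4 to 47.1). Per cell it was higher in the DKO library in those upper groups, 0.695 against 0.920 UMIs at 75 to 90% and 0.236 against 0.358 at 90% or more. Per 10000 alpha UMIs it was 4.51 and 3.17 at 75 to 90%, and 1.58 and 1.22 at 90% or more.

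With each cell thinned to 1000 UMIs, 19.3% of WT and 12.3% of DKO cells of E2 had an Hbq1b UMI, against 75.6% and 78.3% before thinning. In L1 the thinned shares were 19.9% and 11.8%. In B cell-like cells (median 2641.5 and 3784 UMIs) they were 0.419% and 0.124%, and in neutrophil-like cells (median 4197 and 4415 UMIs) 0.499% and 0.150%. The erythroid shares of Hbq1b thus lay well above those of cells that should lack it. For Hbb-bs this was not so clear, since 90.2% of WT and 77.4% of DKO B cell-like cells had an Hbb-bs UMI after thinning.

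Hbq1a, the other theta gene, had its highest CPM later than Hbq1b. In WT cells it had 3.07 CPM in E2, 15.7 CPM in L1, 28.9 CPM in L2, 22.4 CPM in L3 and 21.4 CPM in L4. In DKO cells it had 1.73, 10.3, 26.1, 28.8 and 26.0 CPM, so that the order of the libraries in CPM turned between L2 and L3, although the log2 ratio in L2 has an interval of -0.37 to 0.08. The turn depends on the scaling, since the L2 ratio was 0.20 per UMI outside the members (-0.03 to 0.43) and the L1 ratio 0.13 per cell. The Hbq1b share of theta UMIs dropped from 98.5% and 98.7% in E2 to 94.4% and 93.8% in L1, 82.5% and 77.0% in L2, 75.5% and 60.3% in L3, and 64.9% and 46.6% in L4. The level of Hbq1a in L4 rests on 105 WT and 189 DKO UMIs.

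**Figure D5:**
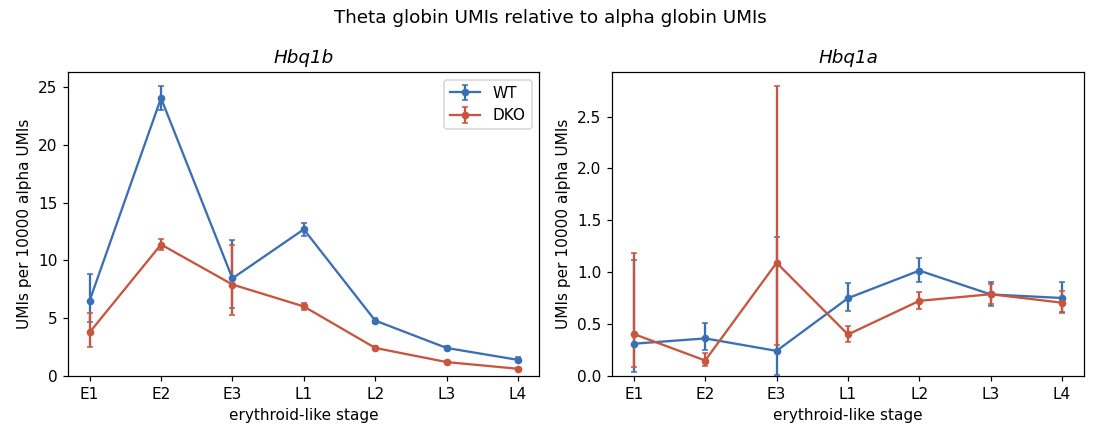
UMIs of the theta genes Hbq1b and Hbq1a per 10000 alpha UMIs (y axes on separate scales) in the 7 erythroid-like clusters, with WT in blue, DKO in red and bars for exact 95% Poisson intervals. Hbq1b is highest in E2 (24.0 in WT, 11.4 in DKO) and declines to L4, and Hbq1a has wide intervals in E1 and E3, where it rests on at most 4 UMIs.

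The embryonic gene Hbb-bh1 was barely detected. It had 65 UMIs over all late WT cells and 49 over all late DKO cells, 2.02 CPM (interval 1.56 to 2.57) and 1.24 CPM (0.920 to 1.64). The highest count in a stage was 29 UMIs, in L2 of the DKO library, where the WT library had 21. In E1 of the DKO library it had 0 UMIs, with an upper limit of 0.901 CPM. Hbb-bh1 was at 0 in B cell-like cells of both libraries.

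Of 12 other globin genes listed, 6 had a row. Hbb-y, an embryonic beta-like gene, had 122 UMIs in E2 of the WT library and 17 in E2 of the DKO library, but 116 of the 122 came from 1 cell, which held 0 UMIs of Hba-x and of Hbb-bh1. Without that cell the WT count is 6. Hba-x, the embryonic alpha-like gene, had 22 UMIs in 2 WT cells and 10 UMIs in 4 DKO cells of E2. Over all cells Hbb-bh2 had 7 and 4 UMIs, Mb (myoglobin, the oxygen store of muscle) 19 and 5, and Ngb (neuroglobin) 2 and 5. Cygb, cytoglobin, had 40 and 38 UMIs, of which 32 and 35 were in stromal-like cells.

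Free RNA in the WT library carried the members too, and its composition depended on the size of the barcodes. The 1125245 WT barcodes with 1 to 100 UMIs held 4073556 UMIs, of which 14.5% were globin members. Barcodes with at most 10 UMIs held 23.7%, with an Hba-a2 share of 43.3% and an alpha share of 31.2%, values close to those of the WT late cells (44.1% and 32.3%). The 68812 barcodes with 51 to 200 UMIs held 7.94%, with an Hba-a2 share of 54.9%, an alpha share of 37.0% and an Hbb-bs share of 79.3%. The Hba-a2 and Hbb-bs shares there lay near those of non-erythroid-like cells with at most 1% globin UMIs, which had an Hba-a2 share of 56.0% in WT and 56.7% in DKO cells and an Hbb-bs share of 80.6% and 80.7%, whereas their WT alpha share was 33.8%. No stage in either library reached an Hba-a2 share above 44.9%.

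The summed markers of neutrophils and of B cells rose from L1 to L4 and ran lower in DKO than in WT cells of these stages. Of 12 neutrophil markers, 0 were at 0 in L1 to L4 of either library, and their sum in CPM of the UMIs outside the members ranged from 5242 in L1 to 15376 in L4 of WT and from 1958 to 7362 of DKO. The 11 B cell markers summed to 89.4 to 232 in WT and 53.0 to 165 in DKO, with 1 marker at 0 in L3 of DKO. In the early clusters the neutrophil sum was 1774 in WT and 402 in DKO cells of E1, and 8544 and 842 in E3. The B cell sum was 147 and 29.5 in E1 but went the other way in E3, with 41.0 and 69.2. The part of RNA from such cells in the globin composition was not tested.

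The regulators of globin genes were mostly within 1.5-fold between the libraries in CPM. Of 17 regulators, 9 reached 20 CPM in late cells and 1 was past 1.5-fold, beside 19.7% of all 879 genes, namely Tal1, a transcription factor of the erythroid complex, with 28.5 CPM in WT and 43.7 CPM in DKO cells (log2 0.62, and 0.83 per UMI outside the members). In early cells Tal1 had 214 and 330 CPM (log2 0.63). Zfpm1, the cofactor of Gata1, had 23.4 and 33.7 late CPM (log2 0.53, and 0.74 per UMI outside the members). The lowest were Lmo2, another part of that complex (log2 -0.20), and Mafk, a small Maf factor (log2 -0.18), and both turned to 0.01 and 0.03 per UMI outside the members. Klf1, which drives adult beta-globin, had 23.5 and 25.4 CPM (log2 0.11).

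Of 12 heme supply genes, 11 were measured and 0 were past 1.5-fold in CPM, beside the same 19.7%. Slc25a37, the mitochondrial iron importer, was highest (666 and 948 CPM, log2 0.51, and past 1.5-fold with 0.72 per UMI outside the members), followed by Fech, which inserts the iron into heme (log2 0.32). Urod, an enzyme of heme synthesis, and Tmem14c, a mitochondrial porphyrin transporter, were lowest (log2 -0.44 and -0.42). Alas2, the rate-limiting enzyme, had 1475 and 1487 CPM (log2 0.01), so heme synthesis genes moved in both directions. Of 6 genes that handle surplus globin, 4 were measured and 0 were past 1.5-fold. Ube2o, a ubiquitin ligase that removes unpaired alpha chains, was highest (log2 0.26), followed by the heme-regulated kinase Eif2ak1 (log2 0.18), Ulk1, an autophagy kinase (log2 0.15), and Prdx2, a peroxidase (log2 -0.25). Of 6 neighbours of the alpha-globin locus, 1 was measured, the spliceosome gene Snrnp25 with 36.5 and 23.0 CPM (log2 -0.66, and -0.45 per UMI outside the members). The list medians were 0.11, 0.01, 0.17 and -0.66, beside -0.09 over all 879 genes.

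Across the 14 points formed by 7 clusters and 2 libraries, with CPM taken outside the members, the genes whose log2 levels ran most like the summed adult globins out of 5165 were Ube2l6 (Pearson r = 0.99), Rnf10, Ncoa4, Isca1 and Sh3glb1. Ube2l6, a ubiquitin-conjugating enzyme, rose from 62.8 to 10630 CPM. For Hbq1b, looked at after its values were seen, the closest were Fam210b and Hagh (r = 0.98 each), March5, Carhsp1 and Smox, all with their highest level in L2. For Hbq1a they were Cmss1 (r = 0.99), Mkrn1, Ccndbp1, Adipor1 and Slc25a39, with their highest level in L3 or L4. These points share libraries, so the correlations are descriptions.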

How the data were processed

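Bone marrow libraries of 1 WT and 1 DKO mouse were analysed. The authors aligned and counted the reads with Cell Ranger (7.1.0 by the file header, genome mm10 by the submitters' processing notes) and deposited raw UMI counts per gene and barcode, without normalization. The WT matrix holds 1518290 barcodes (1194299 with a UMI, 135693452 UMIs) and the DKO matrix 14142 barcodes, the lowest with 500 UMIs. WT cells were called above 4869 UMIs (9663 barcodes) or, from 500 UMIs, by a test against free RNA (9606 of 10284 barcodes at a false discovery rate of 0.01), and cells over 20% mitochondrial UMIs (176 WT, 215 DKO) were removed. Doublets were scored with scrublet in scanpy. The WT scores gave no threshold, so that of the DKO library (0.225) was used in both, which marked 326 (1.71%) and 202 (1.45%) cells. Before filtering, 81 called barcodes were shared.

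Cells of both libraries were clustered without the members (2000 variable genes, 30 components, 15 neighbours, Leiden resolution 1) and named from markers, a stage needing 50 cells in each library. Counts were summed per library and stage and scaled to CPM. Log2 ratios had 1 count added to each sum. Intervals are exact Poisson, Clopper-Pearson or conditional binomial at 95%. No test between genotypes was possible with 1 library each. Genes of at least 20 CPM were set against a 1.5-fold limit. On simulated counts of 877 genes for the late comparison, 100% of the genes changed 2 fold were recovered. The adult globin genes were not among the changed genes. The simulation held counting error only, so it does not cover differences between libraries.

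Named genes were all members found, Ddx41 and Cgas, other listed globins with a UMI, the 2 highest and 2 lowest of each pathway list, and the 5 genes most like the summed adult globins. Members and lists were chosen with earlier results of these data known. The lists hold 12 other globins, 17 regulators, 12 heme supply, 6 surplus handling and 6 locus genes. Python 3.11.15, numpy 2.4.6, scipy 1.17.1, pandas 2.3.3, anndata 0.12.19, scanpy 1.11.5 and matplotlib 3.10.9 were used.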

Additional observations from a re-analysis of the deposited data

Results flagged for a closer look

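The beta-globin genes had opposite signs in early and late erythroid-like cells. The log2 ratio of DKO over WT in CPM was 0.0904 for Hbb-bt in early cells and -0.153 in late cells, and for Hbb-bs it was 0.182 and -0.109. With 1 library per genotype the difference between the cell classes was not tested. Per UMI outside the members the late values were 0.06 and 0.10, so the late sign holds in CPM only.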

How the results depend on the processing

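Alternatives in the processing changed the sizes, and none reversed the sign of a result listed here. The late ratios of Hbb-bs and Hbb-bt, whose sign turns with the scaling, are not among these results. The late log2 ratio of the summed members, 0.0406, was 0.254 per UMI outside the members, 0.674 per cell, 0.0431 when the members entered the clustering, 0.0389 in cells with at least 75% member UMIs, 0.0380 in barcodes above the order-of-magnitude threshold and 0.0388 without doublet removal. The difference in the Hbb-bs share, 0.533 points, was 0.420 in cells with at least 75% member UMIs and 0.829 above that threshold. The difference in the alpha share, 7.1 points, was 7.30 and 7.06 in the same cells and 4.0 in E2. The late log2 ratio of Hbq1b, -0.69, was -0.48 per UMI outside the members, -0.058 per cell, -1.02 per alpha UMI, -0.62 in cells with at least 75% member UMIs, -0.79 above the threshold and -0.62 in E2. Its per-cell interval, -0.12 to 0.0075, covers both signs. The share of the members in free RNA, 14.5%, was 23.7% at most 10 UMIs, 22.6% at most 50 and 7.94% at 51 to 200. The Hba-a2 share there, 48.2%, was 43.3%, 43.6% and 54.9%, and 56.0% in non-erythroid-like WT cells with at most 1% member UMIs. The share of genes past 1.5-fold, 19.7%, was 54.8% among genes with at least 10 UMIs over both libraries. The cause was not tested except where the scaling itself sets the value. The alternatives for Hbq1b, for E2, for 51 to 200 UMIs, for the Hba-a2 share and a neighbour search in double precision were chosen after seeing the data. Those for Ahsp were not run.

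No paired analysis was possible because each genotype has 1 library, and no library was left out. Depth limits Hbb-bh1 and Hbq1a, which rest on at most 29 and 324 UMIs in a stage. The DKO cells held more UMIs than the WT cells, and only the WT library showed its free RNA.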
